A study of Mus musculus with 6 samples.

Results

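The genes described here are those whose array probes lie between 78 and 88 Mb of mouse chromosome 15, a stretch that holds *Sult4a1*, in the testes of *Prss55*-/- and wt mice. The array files name 170 genes in this window, and 155 were kept out of the 21249 named genes on the array. The 15 left out were 2 single genes and genes whose names start with Cyp, Nduf, Rpl, Rps, Dna or Tex. The window was set with the genotype differences of these same 6 arrays known. The difference between *Prss55*-/- and wt testis is therefore given for its members as a description. Members that passed a p threshold are counted as a description too, and the block as a whole was not tested. Probe positions follow the mouse build mm9 that the array file headers name.

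Total RNA came from whole testes of 3 *Prss55*-/- and 3 wt males of 6 to 8 weeks on a mixed 129Sv/C57BL/6 strain background, with 1 array and 1 Cy3 dye per mouse. The knockout line had been made by homologous recombination at *Prss55*, which lies on chromosome 14. For chromosome 15, the labels do not give the strain origin in any of the mice. Values are log2 signals after quantile normalization of the 6 arrays, given as mean ± SD over 3 mice, and a difference of 1 is 2-fold. The labels do not say whether the mice were littermates. In whole testis, fewer cells of a type and less RNA per cell cannot be told apart.

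The block is a gene-dense stretch without a single theme. It carries *Sult4a1*, a cytosolic sulfotransferase known mainly from brain whose substrate is not established, together with the lectins *Lgals1* and *Lgals2*, the meiotic recombinase *Dmc1*, the meiotic cohesin subunit *Smc1b*, the sperm perinuclear theca gene *Wbp2nl*, the mitochondrial import receptor *Tomm22* and many genes known from blood cells.

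Promoters are shown for the members that differed by 2-fold or more and have an entry in the RefSeq promoter table of GRCm38.p6, *Cdc42ep1*, *Lgals2*, *Tomm22* and *Rrp7a*, to give the sequence upstream of the genes with the most divergent signals. Each is the 250 bases before the annotated start, 5′ to 3′ on the strand of the gene, with coordinates of GRCm38.p6 and with matches to the motifs searched in capitals.
Cdc42ep1 promoter, chr15:78842397-78842646, plus strand: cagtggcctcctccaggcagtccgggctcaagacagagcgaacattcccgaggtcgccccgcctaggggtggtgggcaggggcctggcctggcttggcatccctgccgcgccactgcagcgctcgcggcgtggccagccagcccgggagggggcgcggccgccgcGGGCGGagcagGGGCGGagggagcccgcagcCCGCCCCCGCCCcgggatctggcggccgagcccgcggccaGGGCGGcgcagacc
Lgals2 promoter, chr15:78855530-78855779, minus strand: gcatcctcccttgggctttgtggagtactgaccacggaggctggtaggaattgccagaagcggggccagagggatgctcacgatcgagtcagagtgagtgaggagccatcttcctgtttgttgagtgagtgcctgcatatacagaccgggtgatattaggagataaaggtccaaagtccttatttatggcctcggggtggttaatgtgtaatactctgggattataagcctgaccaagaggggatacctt
Tomm22 promoter, chr15:79670618-79670867, plus strand: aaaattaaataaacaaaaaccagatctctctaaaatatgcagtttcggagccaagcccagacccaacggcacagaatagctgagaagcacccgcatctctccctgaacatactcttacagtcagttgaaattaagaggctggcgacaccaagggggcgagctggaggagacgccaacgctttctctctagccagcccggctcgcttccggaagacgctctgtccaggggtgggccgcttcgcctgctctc
Rrp7a promoter, chr15:83122802-83123051, minus strand: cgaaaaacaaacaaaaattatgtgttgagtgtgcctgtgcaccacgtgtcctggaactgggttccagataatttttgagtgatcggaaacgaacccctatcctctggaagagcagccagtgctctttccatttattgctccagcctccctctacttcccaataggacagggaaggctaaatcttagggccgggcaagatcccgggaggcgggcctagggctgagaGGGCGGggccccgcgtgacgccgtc

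The motifs searched on both strands were the GC box GGGCGG, the TATA box TATAAA, the cAMP response element TGACGTCA and the MYB element TAACGG, and none of them contains another. *Cdc42ep1* had 5 GC boxes, *Rrp7a* had 1, and *Lgals2* and *Tomm22* had no match to any of the 4 motifs. The table holds 143 promoters of 105 members and 32851 promoters in all. A GC box was found in 58.7% of the member promoters and 32.7% of all promoters, and a TATA box in 4.9% and 12.4%. The cAMP response element was found in 2.1% of the member promoters (3 of 143, those of *Maff*, *Pnpla3* and *Xpnpep3*) and 1.55% of all, and the MYB element in 2.8% and 2.18%.

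The arrays had between 69.5% and 72.9% of their spots well above background and 0 saturated spots. The only *Prss55* probe was lower in *Prss55*-/- testis, at 14.99 ± 0.08 against 15.89 ± 0.12, and remained well above background on all 6 arrays. The paper reports that its RNA was absent from the knockout by RT-PCR, and its protein by Western blot and immunofluorescence. With 1 probe, at position 987 of the transcript, it cannot be told whether a whole transcript remained. No slide carried both genotypes (slide 1 held the *Prss55*-/- mice, slides 2 and 3 the wt mice), so slide and genotype cannot be told apart. Germ cell markers were at similar summed levels in both genotypes, from 20.73 to 20.81 in *Prss55*-/- and from 20.79 to 20.84 in wt testis (10 of 10 markers tested). Summed Leydig cell markers were lower, from 14.04 to 14.69 against 14.76 to 14.92 (5 of 6 tested). Single Leydig cell markers differed by -0.73 to 0.37 with a median of -0.56, so not every marker was lower. The genotypes did not overlap for 1 of them, and 0 passed the adjusted threshold used below in either direction. The part of these markers in the differences below was not tested. Replicate 1 of *Prss55*-/- stood apart from replicates 2 and 3 in many genes. It lay 0.5 or more in log2 from their mean in 3.88% of the 16100 named genes well above background on all arrays, against 1.99% and 1.52% for replicates 2 and 3 and 1.39% to 2.93% for the wt mice, and the larger differences and the counts of calls are given with and without it.

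Of the 155 members, 146 were tested, which asked for a probe called well above background in every mouse of 1 or both genotypes, and 142 of these were above background in all 6 mice. The 9 others were *1810041L15Rik*, *AI835086*, *Cacna1i*, *Fam19a5*, *Il2rb*, *Pnpla3*, *Pvalb*, *Sstr3* and *Upk3a*. Where a gene had several such probes the brightest stood for it. The mean signals of the members ran from 4.89 to 16.56 with a median of 10.14. The highest was that of *1700029P11Rik*, with 16.53, 16.47 and 16.46 in the *Prss55*-/- mice and 16.72, 16.59 and 16.57 in the wt mice.

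Most of the block differed little between the genotypes. The difference was under 0.25 in log2 for 104 members, and the median over the 146 was -0.02, beside -0.0038 over all named genes tested. It was 0.5 to 1 for 12 members, 3 higher and 9 lower in *Prss55*-/- testis, and the measured difference was 1 or more for 7. Of these, *Sult4a1* and *Baiap2l2* were higher, *Rrp7a*, *Lgals2*, *Cdc42ep1* and *Tomm22* were lower, and *Pdgfb* was higher by a bound that is under 2-fold, because its wt signal was not well above background. The nearest to 1 were *Tomm22* inside, at -1.25, and *Tef* outside, at -0.82. Members at 0.5 or more made up 13.0% of the block, beside 2.63% of the 114 named genes tested from 68 to 78 Mb, 3 of the 75 from 88 to 98 Mb and 3.97% of all named genes. The window was chosen for these differences, so nothing is read from those shares.

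**Figure D1:**
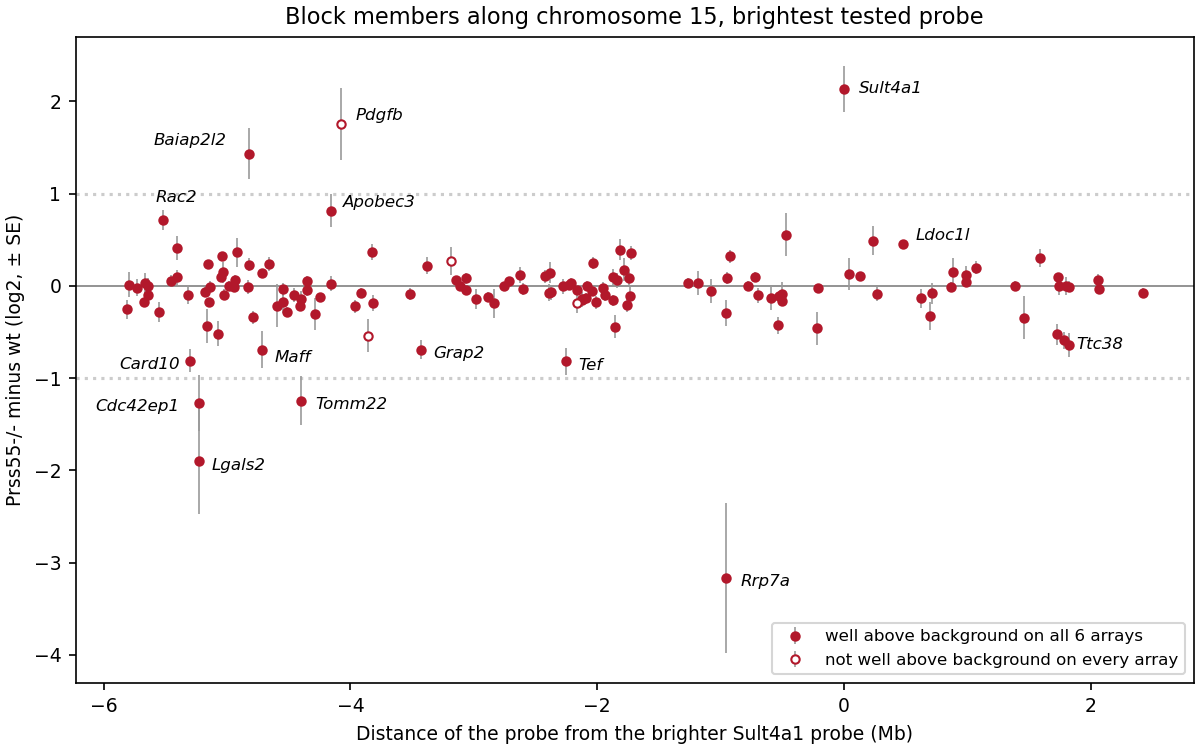
Difference between *Prss55*-/- and wt testis (log2, mean of 3 mice minus mean of 3 mice, bars are the standard error of the limma fit) for the 146 tested members against the distance of their probe from the brighter *Sult4a1* probe in Mb. Most points lie near 0, with the differences of 2-fold or more (dotted lines) spread from 5.23 Mb before *Sult4a1* to *Sult4a1* itself.

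Members with larger differences were spread along the block among members with small ones, apart from the neighbours *Card10*, *Cdc42ep1* and *Lgals2*. Along the block, members at 0.5 or more numbered 5 of 30 from 78 to 79 Mb, 5 of 24 from 79 to 80 Mb, 2 of 12 from 80 to 81 Mb, 1 of 25 from 81 to 82 Mb and 1 of 17 from 82 to 83 Mb. They numbered 2 of 13 from 83 to 84 Mb, 0 of 12 from 84 to 85 Mb and 3 of 12 from 85 to 86 Mb, and the last tested member lay at 86 Mb. At the edges, the first member *Ncf4*, a subunit of the phagocyte oxidase, differed by -0.25 and the last, *Tbc1d22a*, by -0.08. The nearest tested genes outside, leaving out the same name families, were *Cacng2* at 0.02 and *Zdhhc25* at 0.05.

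At the probes that stood for the members, *Sult4a1* had the largest positive difference, and both of its probes were higher in *Prss55*-/- testis. The brighter probe (chr15:83906546-83906605, minus strand) read 9.89, 10.71 and 10.74 in the *Prss55*-/- mice and 8.27, 8.11 and 8.55 in the wt mice. All *Prss55*-/- mice were above all wt mice, with replicate 1 the lowest of the 3. The means were 10.44 ± 0.48 and 8.31 ± 0.22, a difference of 2.13 (standard error 0.25) or 4.38-fold, and 2.41 without replicate 1. The dimmer probe (chr15:83907872-83907931) read 8.48, 9.70 and 9.60 in *Prss55*-/- testis, and at 5.25, 5.25 and 4.99 it was not well above background in any wt mouse. Measured against the lowest signal called above background, it was at least 17.0-fold higher (at least 22.3-fold without replicate 1), with measured means of 9.26 and 5.16. A fold taken against the background is a lower bound, because the wt level of this probe is not known.

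The genes beside *Sult4a1* differed by less. On its proximal side, *Efcab6*, a gene with calcium-binding domains known from testis, read 14.22 ± 0.02 against 14.25 ± 0.03. *Mpped1*, a metallophosphoesterase, differed by -0.46 and *Scube1*, a secreted protein with EGF-like domains, by 0.55. *Scube1* read 7.71, 7.63 and 8.51 in *Prss55*-/- and 7.35, 7.38 and 7.46 in wt testis, so that 1 mouse carried most of the difference. On the distal side, *Pnpla5*, a lipase of lipid droplets, differed by 0.13, *Samm50*, a subunit of the mitochondrial outer membrane assembly machinery, by 0.10 and *Parvb*, an actin-binding adhesion protein, by 0.49. Of the sulfotransferase and sulfate donor genes elsewhere in the genome, 9 of 16 were tested, and their median difference was 0.0013, with 0 higher and 1 lower past the adjusted threshold.

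Among the probes that stood for the members, the bright probe of *Rrp7a* had the largest difference, although the dimmer *Sult4a1* probe exceeded it and the second *Rrp7a* probe differed by 0.21 in the other direction. *Rrp7a*, which acts in ribosomal RNA processing, read 12.50, 9.52 and 9.43 in *Prss55*-/- testis and 13.72, 13.64 and 13.59 in wt testis (chr15:82946533-82946592, minus strand). The wt mice lay close together (SD 0.06), while the *Prss55*-/- mice had an SD of 1.75 and replicate 1 lay 3.03 above the mean of the other two. The difference was -3.17 (standard error 0.82) over the 3 mice and -4.18 (standard error 0.07) without replicate 1.

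*Lgals2*, the lectin galectin 2, read 9.20, 6.95 and 7.26 in *Prss55*-/- and 9.65, 9.83 and 9.63 in wt testis, a difference of -1.90 that was -2.60 without replicate 1. *Cdc42ep1*, a binding partner of the GTPase CDC42 that acts on actin, read 8.82, 7.67 and 7.86 against 9.24, 9.33 and 9.58, a difference of -1.27 that was -1.62 without it. Both had replicate 1 nearest to the wt mice, and the groups did not overlap. These probes lie 4 bases apart on opposite strands. *Lgals1*, galectin 1, read 13.99 ± 0.01 against 14.17 ± 0.02.

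*Tomm22*, the central receptor of the mitochondrial protein import pore, read 14.78, 13.84 and 13.78 in *Prss55*-/- and 15.36, 15.46 and 15.34 in wt testis. The difference was -1.25 (standard error 0.27), or -1.57 without replicate 1, and replicate 1 lay between the other *Prss55*-/- mice and the wt mice. Among the other mitochondrial genes of the block, the brightest was *1500032L24Rik*, a small subunit of the mitochondrial calcium uniporter, which was higher at 15.92 ± 0.13 against 15.56 ± 0.06. Over the 10 mitochondrial genes tested the median difference was -0.0056, and 0 passed the adjusted threshold in either direction with all mice and 2 higher and 1 lower without replicate 1.

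*Baiap2l2*, a membrane-bending protein of the actin cytoskeleton, was higher, with 7.41, 8.40 and 8.37 against 6.52, 6.63 and 6.74 in the wt mice. The difference was 1.43 (standard error 0.27), or 1.76 without replicate 1. *Apobec3*, a cytidine deaminase that restricts retroviruses, read 9.23, 9.84 and 9.88 against 8.82, 8.92 and 8.78, a difference of 0.81, or 1.03 without it. Replicate 1 was again the *Prss55*-/- mouse nearest to wt in both genes. *Pdgfb*, a growth factor of vessel walls, read 5.66, 5.77 and 5.88 in *Prss55*-/- testis and was not well above background in any wt mouse, which makes it at least 1.63-fold higher (1.69-fold without replicate 1) with measured means of 5.77 and 4.01.

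**Figure D2:**
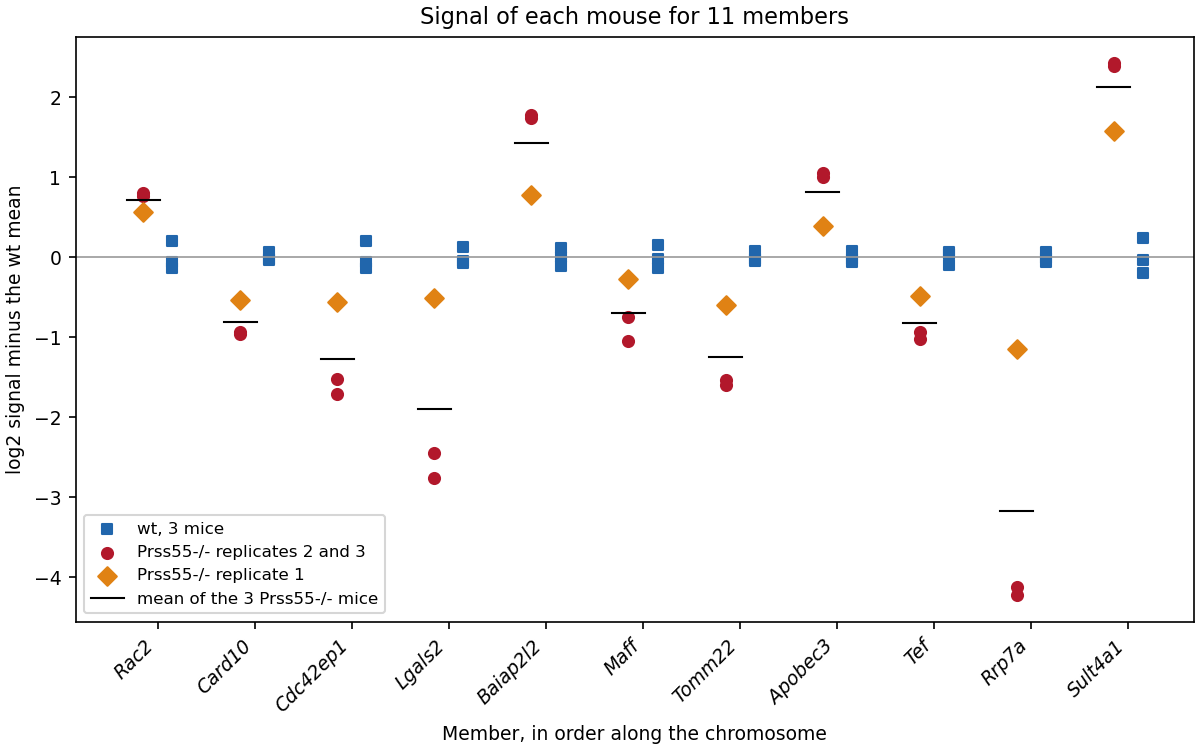
Log2 signal of each mouse minus the wt mean for 11 members in chromosomal order, with squares for the 3 wt mice, circles for *Prss55*-/- replicates 2 and 3, a diamond for replicate 1 and a line for the mean of the 3 *Prss55*-/- mice. Replicate 1 lies between the wt mice and the other *Prss55*-/- mice in all 11 members, for instance 12.50 beside 9.52 and 9.43 for *Rrp7a*.

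In the fit of all probes, 4 of the 146 tested members passed an adjusted p of 0.05 in limma as higher and 3 as lower, beside 0.609% of all named genes tested that passed as higher and 0.585% as lower. The higher ones were *Sult4a1*, the blood cell GTPase *Rac2*, the threonine-breakdown enzyme *Gcat* and the retrotransposon-derived *Ldoc1l*. The lower ones were *Card10*, a scaffold of NF-kB signalling, the T cell adaptor *Grap2* and *Ttc38*, a gene with tetratricopeptide repeats. At an unadjusted p below 0.05 and a measured 2-fold, 7 members passed, *Pdgfb* among them, beside 0.615% of all named genes. The *Prss55*-/- and wt values did not overlap for 60 members, beside 28.1% of all named genes. The window was set with this contrast known, so nothing is read from these counts.

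Of the 7 members called, *Sult4a1* alone differed by 1 or more. *Gcat* read 10.25, 10.27 and 10.24 against 9.92, 9.94 and 9.92, a difference of 0.32 with SDs of 0.02 and 0.01. *Ldoc1l* read 12.43, 12.44 and 12.53 against 12.00, 12.01 and 12.03, a difference of 0.45. In both genes replicate 1 lay with the other *Prss55*-/- mice, and the differences were 0.33 and 0.47 without it. *Rac2* differed by 0.71, *Card10* by -0.81, *Grap2* by -0.69 and *Ttc38* by -0.59. Without replicate 1 the differences were 0.78, -0.95, -0.71 and -0.69.

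The number of calls changed when any 1 mouse was left out, which also left fewer mice in the fit. Without *Prss55*-/- replicate 1 it was 9 higher and 13 lower in the block, beside 1.35% and 1.89% of all named genes, and 6 of the 7 members called with all mice were among these 22. The members added included *Rrp7a*, *Lgals2*, *Cdc42ep1*, *Tomm22*, *Baiap2l2*, *Apobec3*, *Maff*, *Tef* and *Ppara*, and *Grap2* was the one lost. Without *Prss55*-/- replicate 2, *Prss55*-/- replicate 3, wt replicate 1 or wt replicate 2, limma passed 0 higher and 0 lower members, with 38, 40, 38 and 49 members at an unadjusted p below 0.05, beside 14.4%, 13.1%, 13.5% and 18.2% of all named genes. With all mice, 50 members and 19.8% of all named genes were at an unadjusted p below 0.05. Without wt replicate 3 limma passed 4 higher and 1 lower. In that fit 50 members were at an unadjusted p below 0.05, beside 22.3% of all named genes. The part of the smaller number of mice in these counts was not tested.

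Replicate 1 lay partway between the genotypes in the members with the largest differences, though not in every member that differed. For each mouse in turn, members were taken in which the other mice of the 2 genotypes did not overlap and differed by at least 0.75 in log2, and the linear signal of the mouse left out was placed on a scale from 0 at the mean of the other wt mice to 1 at the mean of the other *Prss55*-/- mice. The members taken also had to be well above background on every array, that of the mouse left out included. *Pdgfb*, which met the other criteria with a difference of 1.81 without replicate 1, was left out by this. Apart from this filter and the choice of the brightest probe, the signal of the mouse left out had no part in choosing those genes. It had a part in the contrast known when the window was set. Replicate 1 of *Prss55*-/- took a median position of 0.485 over 11 members, with all 11 between 0.299 and 0.667. The lowest were *Baiap2l2* and *Apobec3*, both at 0.299, *Lgals2* at 0.357 and the bZIP factor *Maff* at 0.383. *Sult4a1* stood at 0.459, *Cdc42ep1* at 0.485, *Tomm22* at 0.514, *Rrp7a* at 0.582, the bZIP factor *Tef* at 0.586, *Card10* at 0.642 and *Rac2* at 0.667. The order among these has no error of its own, because each position rests on 1 mouse.

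On the linear scale, *Rrp7a* gave 5796 in replicate 1, beside 736 and 688 in replicates 2 and 3 and 13514, 12763 and 12367 in the wt mice. *Tomm22* gave 28183, beside 14687 and 14104 and 41944, 44952 and 41360. *Sult4a1* gave 948, beside 1672 and 1704 and 309.6, 277 and 375. In each of these genes replicate 1 was far from both sets of mice relative to the spread inside them, whether the signal was higher or lower in *Prss55*-/- testis.

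Within the block, the medians of the other mice did not lie partway. Over the block, *Prss55*-/- replicates 2 and 3 took median positions of 1.34 (7 members) and 1.37 (6 members), above 1 because replicate 1 was among the mice that set the scale. The wt mice took medians of 0.05, -0.06 and 0.07 over 9, 9 and 12 members, and 3 members of wt replicate 3 lay between 0.25 and 0.75. The 3 *Prss55*-/- arrays had 1 slide in common, and the part of the array's place on it was not tested. In the summed Leydig cell markers replicate 1 was the highest of the 3 *Prss55*-/- mice, at 14.69. It was also the highest in macrophage markers, at 12.38, and epididymis markers, at 16.54 (5 of 10 tested). The brightest epididymis marker alone averaged 16.46 in *Prss55*-/- testis, so 1 gene made up most of that sum. Single epididymis markers differed by -2.91 to 0.53 between the genotypes. Replicate 1 was not the highest in the germ cell, Sertoli cell, peritubular and vascular, or blood markers. It lay close to the highest in Sertoli cell (17.60 beside 17.61) and blood markers (14.51 beside 14.52). The part of these cell types in its position was not tested.

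Positions of replicate 1 on the rest of chromosome 15 were set beside those of the block. After the block, from *Kif21a* at 6.86 Mb to *Aaas* at 18.26 Mb beyond *Sult4a1*, 8 genes met the same criteria, and replicate 1 took a median position of 0.05 with all 8 between -0.07 and 0.201. *Kif21a*, a kinesin, gave 804 in replicate 1, 192 and 193 in replicates 2 and 3, and 803, 802 and 919.7 in the wt mice. Before the block 7 genes met them, with positions spread from -1.48 to 1.37 and 2 between 0.25 and 0.75. Among 218 genes outside the window over the whole genome, 66 lay between 0.25 and 0.75, 96 lower and 56 higher, with a median of 0.359. No test of the block against these genes was made, since genes next to each other are not independent and the positions come from 1 mouse. Outside the block on chromosome 15, wt replicate 1 lay partway too. Before the block its median was 0.42 over 5 genes, 4 of them between 0.25 and 0.75. After the block it was 0.53 over 3 genes, 2 of them between 0.25 and 0.75. Before the block wt replicates 2 and 3 took medians of -0.07 and -0.08, and *Prss55*-/- replicates 2 and 3 took 0.95 and 1.05.

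**Figure D3:**
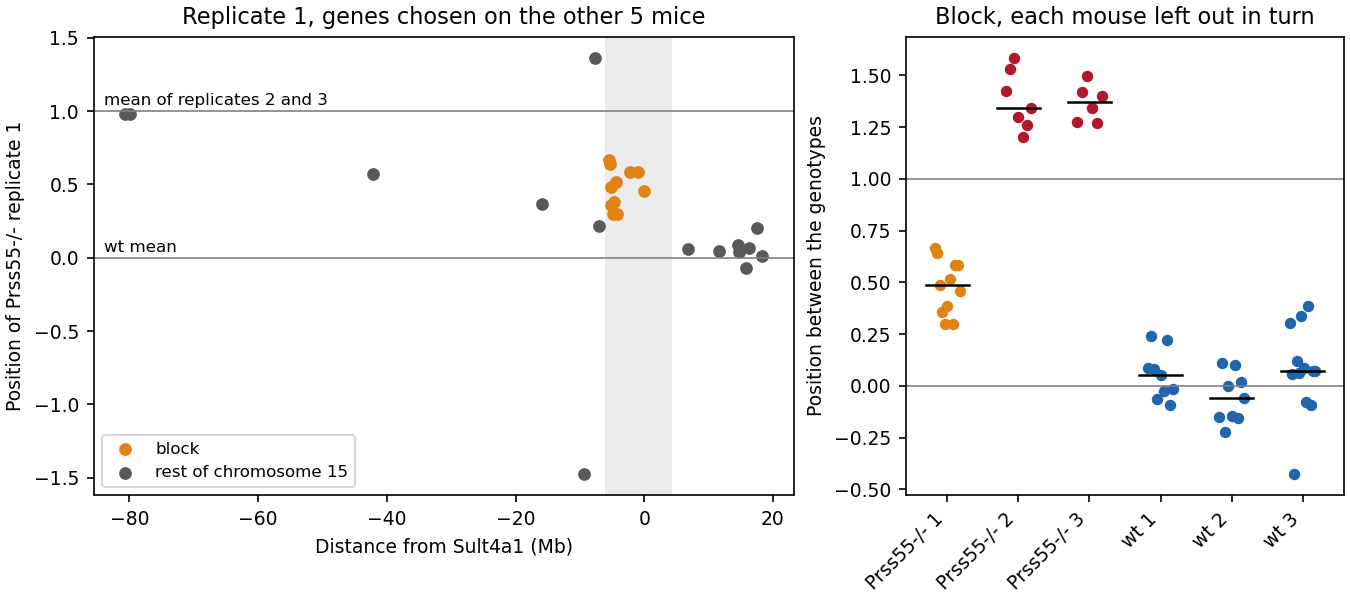
Left, position of *Prss55*-/- replicate 1 between the wt mean (0) and the mean of *Prss55*-/- replicates 2 and 3 (1) on the linear scale. Points are chromosome 15 genes well above background on every array and chosen by the difference of the other 5 mice. They are set against distance from *Sult4a1* in Mb, with the block shaded. Right, positions in the block of each mouse when it was the one left out (points are members, lines are medians), where replicate 1 has a median of 0.485 and the wt mice have medians from -0.06 to 0.07.

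With members taken at 0.5 or more in place of 0.75, 23 members met the criteria, and replicate 1 lay between 0.25 and 0.75 in 19 of them. The 4 others were *Grap2* at 0.959, *Parvb* at 0.164, the neural crest factor *Sox10* at 0.103 and the signalling ligand *Wnt7b* at -0.10. *Parvb* and *Wnt7b* lie distal to *Sult4a1*, but *Ppara*, the fatty acid receptor, at 0.477, *Ttc38* at 0.632 and the planar polarity cadherin *Celsr1* at 0.675 lie there too.

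Probes within 1 gene did not always agree. Of 54 members with 2 or more tested probes, 32 had all differences within 0.25 of each other, 11 had them 0.5 or more apart and 4 had them 1 or more apart. These 4 were *Sult4a1*, described above, *Rrp7a*, *Cdc42ep1* and *Nfam1*. The second *Rrp7a* probe (chr15:82944986-82945045) read 7.71 ± 0.04 in *Prss55*-/- and 7.50 ± 0.15 in wt testis, a difference of 0.21 in the direction opposite to the bright probe. The second *Cdc42ep1* probe, 5.84 ± 0.36 against 5.93 ± 0.36, differed by -0.09.

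*Nfam1*, an immune receptor of B cells and other blood cells, read 5.66 ± 0.03 against 5.72 ± 0.25 on its brighter probe. On its other tested probe it read 5.67, 3.99 and 3.71 in *Prss55*-/- and 6.58, 6.25 and 6.55 in wt testis, and only replicate 1 was well above background among the *Prss55*-/- mice, which makes it at least 2.35-fold higher in wt testis (2.74-fold without replicate 1). *Tef* had 4 tested probes, of which 2 differed by -0.82 and -0.68 and the outer 2 by -0.11 and -0.03. *Card10* had 2, which differed by -0.81 and -1.27. For these genes the probes gave unequal differences, and some of those probes read near background. Whether the transcript changed unequally along its length was not tested, and a level of the whole gene cannot be given.

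**Figure D4:**
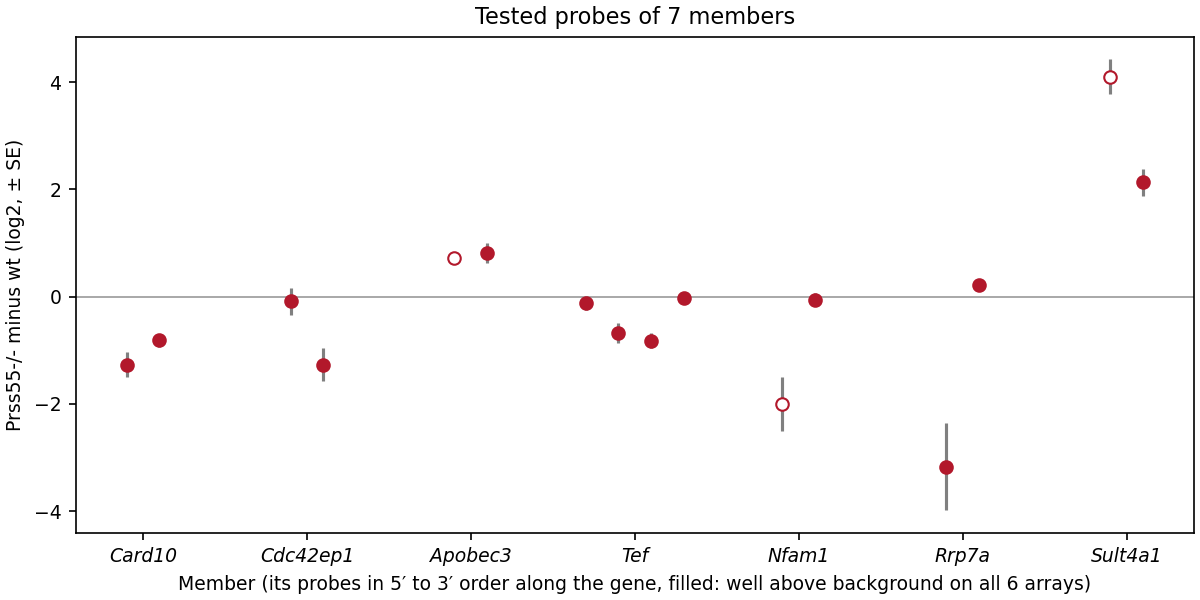
Difference between *Prss55*-/- and wt testis (log2, bars are the standard error of the limma fit) for each tested probe of 7 members, in 5′ to 3′ order along the gene, with open circles where a probe was not well above background on every array. The probes of *Rrp7a* differed by -3.17 and 0.21, and those of *Sult4a1* by 4.10 and 2.13.

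Grouped by what the genes are known to do, the meiosis genes of the block showed small differences. The 7 tested had a median of -0.02 and a range from -0.29 to 0.06, and 0 passed the adjusted threshold in either direction, with or without replicate 1. The largest was *Dmc1*, which carries out strand exchange in meiosis, with 9.38, 9.43 and 9.30 against 9.67, 9.65 and 9.64, and the 2 genotypes did not overlap. The brightest, *Rangap1*, the GTPase activator of Ran, read 16.06 ± 0.12 against 16.13 ± 0.08.

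Of the 13 spermatid, sperm and cilium genes, 0 passed in either direction with or without replicate 1, with a median of -0.10 and a range from -0.22 to 0.20. *Cby1*, a protein of the ciliary base, read 11.60 ± 0.05 against 11.82 ± 0.02. *Wbp2nl*, which encodes a protein of the sperm perinuclear theca, read 14.60 ± 0.09 against 14.81 ± 0.08. For both, every *Prss55*-/- mouse lay below every wt mouse.

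Of the 16 tested genes of lipid, sugar and sulfate metabolism, *Sult4a1* and *Gcat* passed as higher and 0 as lower, and 2 higher and 3 lower passed without *Prss55*-/- replicate 1. *Gcat* acts in amino acid breakdown, which the name of the list does not cover. The median was -0.12. Of the 27 genes of transcription, chromatin and RNA, 0 passed in either direction with all mice and 0 higher and 3 lower without *Prss55*-/- replicate 1. Their median was -0.01 and the brightest, the translation initiation subunit *Eif3l*, read 15.34 ± 0.03 against 15.34 ± 0.06. Of the 11 immune cell genes, *Rac2* passed as higher and *Card10* and *Grap2* as lower, and without replicate 1 the counts were 2 higher and 1 lower. Their median was -0.06. The brightest of them, the adhesion protein *Parvg*, read 11.28 ± 0.12 against 11.37 ± 0.09.

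Of the 16 neuronal, channel and signalling genes, 0 passed in either direction, also without replicate 1, with a median of -0.10. Their brightest was *Pacsin2*, a membrane-remodelling protein, at 11.29 ± 0.08 against 11.39 ± 0.13. Of the 13 cytoskeleton and adhesion genes, 0 passed with all mice and 2 higher and 3 lower without replicate 1. Their brightest, the chaperone cofactor *St13*, read 14.83 ± 0.02 against 14.78 ± 0.03. Over all named genes tested, the median difference was -0.0038. The macrophage markers elsewhere in the genome had a median of -0.14 with 0 of 7 past the threshold, and summed levels from 12.23 to 12.38 in *Prss55*-/- and from 12.35 to 12.48 in wt testis.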

How the data were processed

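The 6 single-dye arrays carry probes of 60 nucleotides and hold 1 testis RNA each. The authors deposited the scanner output, made with Agilent Feature Extraction 10.7 per the submitters' processing notes, in which the processed signal is an intensity corrected for background within the array. A deposited matrix of the authors' log2 values, quantile-normalized in GeneSpring per the methods, served as an alternative. Here, control and outlier spots were left out, signals below 1 were set to 1, log2 signals were quantile-normalized and spots of a probe averaged. Fitted were 28606 probes, each called well above background in every mouse of 1 or both genotypes, with limma 3.58.1 in R 4.3.3, with Benjamini-Hochberg adjustment over all of them. The number of arrays limits the precision, and p-values measure only the spread between these mice. The fit was tested on simulated data.

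The members, gene lists and tests were chosen with earlier results of these data known. Members named with values were *Sult4a1*, those at 2-fold or past the adjusted threshold, the 3 nearest tested neighbours on each side, the window edges, genes whose probes lay 1 or more apart, and the brightest and most different gene of each list. *Maff*, *Tef*, *Ppara*, *Sox10*, *Wnt7b*, *Celsr1* and *1700029P11Rik* were named after their values were seen. Summed marker levels are the log2 of the summed linear signals. For bounds, a dim mouse took the dimmest signal its array still called above background, or its own where higher. Coordinates of probes (mm9) and promoters (GRCm38.p6) were not converted. The protein, fertility and qRT-PCR data were not analysed here.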

Additional observations from a re-analysis of the deposited data

How the results depend on the processing

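The members called at the adjusted threshold, 4 higher and 3 lower, depended on the settings more than the differences did. The counts were 3 higher and 5 lower with normexp background correction, 1 and 0 with no filter on dim probes, 3 and 0 with the slide as random block, 1 and 1 under the methods' t-test after Benjamini-Hochberg adjustment, and 2 and 2 from 79 to 87 Mb. At an unadjusted p below 0.05, limma passed 48 members (normexp), 49 (no filter) and 48 (slide), beside 17.4%, 18.3% and 18.5% of all named genes. The t-test passed 43, beside 18.6%. Shares of all named genes past the adjusted threshold were not taken for these settings, so nothing is read from the changes in these counts. With the replicate number as a block they were 0 and 0 in limma, with 46 members at an unadjusted p below 0.05, beside 15.3% of all named genes. Same-numbered mice of the 2 genotypes correlated at -0.05, -0.02 and -0.11 in their deviations. The paper speaks of 3 pairs of mice, and the labels do not say which mice formed a pair. With 3 mice per genotype these correlations cannot show whether the mice were paired. Where a setting gave 0 lower, 28 members (no filter) and 28 members (slide) were lower at an unadjusted p below 0.05 in limma, beside 9.08% and 9.29% of the named genes tested.

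Leaving out 1 mouse in turn, the counts ran from 0 to 9 higher and from 0 to 13 lower, and the median difference of the members from -0.0481 to -0.0204. That median was -0.0054 with 75th percentile scaling, which moves the median of all probes from 0.0019 to 0.02, and -0.0371 from 79 to 87 Mb. The members past an unadjusted p below 0.05 and 2-fold numbered 4 with normexp in place of 7, and the methods' t-test gave 6. Shares of all named genes at 2-fold were not taken for these settings, so nothing is read from the changes. The brighter *Sult4a1* probe stayed between 1.89 and 2.41 over all settings. The dimmer one fell to 2.62 with normexp and its offset, and otherwise lay between 3.88 and 4.49.

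The *Prss55* difference was -0.90 with an adjusted p of 0.101 with the replicate block and 0.0713 with the methods' t-test, and lay between -0.96 and -0.84 with 1 mouse left out. Of the other named members, 6 moved by more than their spread, all with normexp, and none with a call changed direction. The median position of *Prss55*-/- replicate 1 was 0.459 with members taken at 0.5 or at 1 log2, 0.474 with 75th percentile scaling, 0.488 in the deposited matrix, 0.382 on the log2 scale and from 0.472 to 0.525 with 1 wt mouse left out. These settings for the position were chosen after the data were seen. All position values rest on 1 mouse, and probes near background give only bounds.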
